A study of Mus musculus with 6 samples.

Results

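Immediate early genes are transcribed within minutes of a stimulus without new protein synthesis, and many of them are also switched on while cells are being taken out of a tissue. The 10 genes described here were picked by symbol as members of that response, Fos, Fosb, Jun, Junb, Jund, Egr1, Atf3, Ier2, Dusp1 and Zfp36, and not by any measured value. All 10 were found among the 26789 genes of the deposited table, and all 10 were among the 18007 genes tested (those averaging 10 normalized counts or more across the 6 libraries). The libraries were made from microglia, the resident macrophages of the brain, of the rostral nucleus of the solitary tract (NST), the first central relay for taste, at P15. Controls (3 libraries) came from litters of dams on the control diet, and E3–E12 diet mice (3 libraries) from litters of dams on a low-sodium diet during early gestation only, after which all animals had standard chow. The labels give no difference in genotype between the groups, and the methods name C57Bl/6 for the control mice of the tracing experiments, without stating the strain for these litters separately. Per the study's methods each library is a pool of littermates from 1 litter, males and females together, so the animals within a pool cannot be told apart and the p-values below measure the spread between litters. That spread is the one left in the deposited values, after a normalization whose steps are not fully given.

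The Fos and Jun proteins pair through leucine zippers to form AP-1, a transcription factor, and Atf3 belongs to the related ATF/CREB family. Egr1 is a zinc finger transcription factor and Ier2 encodes a nuclear protein. Dusp1 and Zfp36 switch the response off again: Dusp1 encodes a phosphatase that inactivates stress-activated MAP kinases, and Zfp36 encodes tristetraprolin, which binds AU-rich elements in short-lived mRNAs such as that of Tnf and speeds up their decay. In microglia these genes respond to injury, to inflammatory signals and to enzymatic dissociation. Per the study's methods the tissue was digested with papain, triturated and passed through magnetic selection for CD11b, whereas the series description names laser microdissection. No library from undissociated tissue was analysed here, so how much of any level arose during isolation was not tested.

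The DNA before the RefSeq start of these genes is shown because signal-regulated factors can bind at starts. Whether sites there bear on the levels in these libraries was not tested. Windows of 250 bases before that start (GRCm38.p6) were read for 8 of the 10 genes, all but Egr1 and Ier2. The RefSeq start is not always the outermost start of the GENCODE model: all 250 bases for Zfp36 lie in an annotated exon of the longer gene model, 47 bases of the window for Dusp1, 7 for Atf3 and 6 for Fosb also fall in annotated exons, and the window for Jund ends 1210 bases before the annotated gene. They were searched on both strands for the cAMP response element TGACGTCA, its core TGACG (which the full element contains), the AP-1 site TGANTCA and the CArG box of serum response factor. Capitals mark the matches in the following stretches, each printed 5′ to 3′ on the strand of the gene; the match in Atf3 is the core on the opposite strand, and for Zfp36 only the surroundings of the match, inside the annotated exon, are given.
Fos, chr12:85473740-85473889, plus strand: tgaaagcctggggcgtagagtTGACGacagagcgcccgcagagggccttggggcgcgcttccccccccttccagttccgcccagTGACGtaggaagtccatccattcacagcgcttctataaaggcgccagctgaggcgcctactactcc
Dusp1, chr17:26508573-26508672, minus strand: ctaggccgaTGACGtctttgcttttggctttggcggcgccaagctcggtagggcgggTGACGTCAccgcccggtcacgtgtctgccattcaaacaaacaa
Atf3, chr1:191183334-191183393, minus strand: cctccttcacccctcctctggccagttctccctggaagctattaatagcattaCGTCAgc
Zfp36, chr7:28379267-28379296, minus strand: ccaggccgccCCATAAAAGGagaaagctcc

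The core was found in 5 of the 8 windows (Fos, Fosb, Junb, Atf3 and Dusp1), and 17.8% of all 32851 windows of this length held it. Of the 8 windows, only that of Dusp1 held a full cAMP response element, as 1.55% of all windows did. Only that of Zfp36 held a CArG box, as 1.47% of all windows did. Sites outside the windows were not searched, so their absence here is not absence from the gene. None of the 8 windows contained the AP-1 site, against 6.75% of all windows. These are matches of letters and were not measured as binding.

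The libraries differed in ways that the diet groups do not explain. Their normalized counts summed to between 9407141 and 17204618, and between 3459 and 10640 genes were listed at 0, with control replicate 2 at the top of both ranges. All 8 microglia markers were present in each library, with a summed level of 91759 to 498160 normalized counts in controls and 94817 to 283557 in E3–E12 diet mice. RNA of other cells was also measured. The 6 endothelial and mural markers summed to 5015 to 21533 in controls and 11987 to 21096 in E3–E12 diet mice, the 5 oligodendrocyte lineage markers to 3803 to 30298 and 4014 to 16426, and the 4 markers of border-associated macrophages to 3986 to 15769 and 3767 to 6868. The 5 astrocyte markers summed to 1662 to 8951 in controls and 4503 to 9384 in E3–E12 diet mice, the 6 neuronal markers to 623 to 1484 and 780 to 1521, the 4 choroid plexus markers to 553 to 18641 and 52.4 to 39776, and the 4 blood cell markers to 356 to 1866 and 321 to 432. Some of these marker lists had fitted differences of 1 sign. All 5 astrocyte markers had a fitted log2 difference above 0 (E3–E12 diet over control, median 0.93), with Aldoc at 236, 7.17 and 203 normalized counts in controls and 607, 486 and 516 in E3–E12 diet mice, without overlap. All 4 markers of border-associated macrophages were below 0 (median -0.60), with Pf4 at 30.5, 36.5 and 173 in controls and 2.25, 20.3 and 12.3 in E3–E12 diet mice, without overlap, and all 4 blood cell markers were below 0 (median -0.68). Control replicate 2 held the lowest control value of Gfap, Aqp4, Slc1a2 and Aldoc, but the highest of Slc1a3. It held the highest control value of Mrc1, Lyve1, Cd163, S100a8 and S100a9, but not of Pf4, Hba-a1 or Hbb-bs. Without that library the fitted log2 difference of Aldoc fell from 2.87 to 1.28, and that of Pf4 went from -2.60 to -2.93. How far the other signs rest on control replicate 2 was not tested. Of the 5 astrocyte markers, 1 was higher without overlap, where 2.99% of all genes tested were. Of the 4 border-associated macrophage markers, 1 was lower without overlap, where 2.91% were. Both Aldoc and Pf4 overlapped between groups after the rescaling to microglia markers described below, and Pf4 also after quantile normalization. Aldoc is in the study's list of higher genes, drawn from these same libraries. None of the markers passed an adjusted p of 0.1 (limma, smallest adjusted p = 0.999). Rbfox3, Syt1, Slc17a6, Gfap, Mag, Folr1, Clic6 and Hba-a1 were each listed at 0 in at least 1 library. The part of these other cells in the values below was not tested, and in such pools fewer cells of a type and less RNA per cell cannot be told apart.

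Immediate early transcripts were abundant in every library. Together the 10 genes took 0.878% to 2% of all normalized counts, and Egr1, Dusp1 and Jun made up 67.3% to 85.2% of that sum. Those shares are of counts, which grow with the length of a transcript, so levels of different genes were otherwise compared after division by exonic length (GENCODE M21). Ranked per kb among all genes, Egr1 lay between 17 and 29, Dusp1 between 18 and 38, and Jun between 34 and 86, while Ier2 lay between 1179 and 9095. On this scale Egr1 had 15781 ± 8322 normalized counts per kb (SD, n = 6 libraries) and Dusp1 13822 ± 9122, and Egr1 was above Dusp1 in 5 of 6 libraries, so their order did not exceed the spread. Dusp1 was above Jun (6358 ± 3490 per kb) in 6 of 6 libraries. Jun and Zfp36 (5010 ± 3258 per kb) changed places between libraries, as did Zfp36 with Jund (2568 ± 1218 per kb) and Jund with Fos (2162 ± 1219 per kb). Fos was above Atf3 in 6 of 6 libraries, but in control replicate 2 only by 4088 against 4087 per kb. Atf3 had 1243 ± 1453 and Fosb 1160 ± 495 normalized counts per kb, again with no stable order, while Fosb was above Junb (699 ± 235 per kb) and Junb above Ier2 (200 ± 108 per kb) in 6 of 6 libraries.

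**Figure D1:**
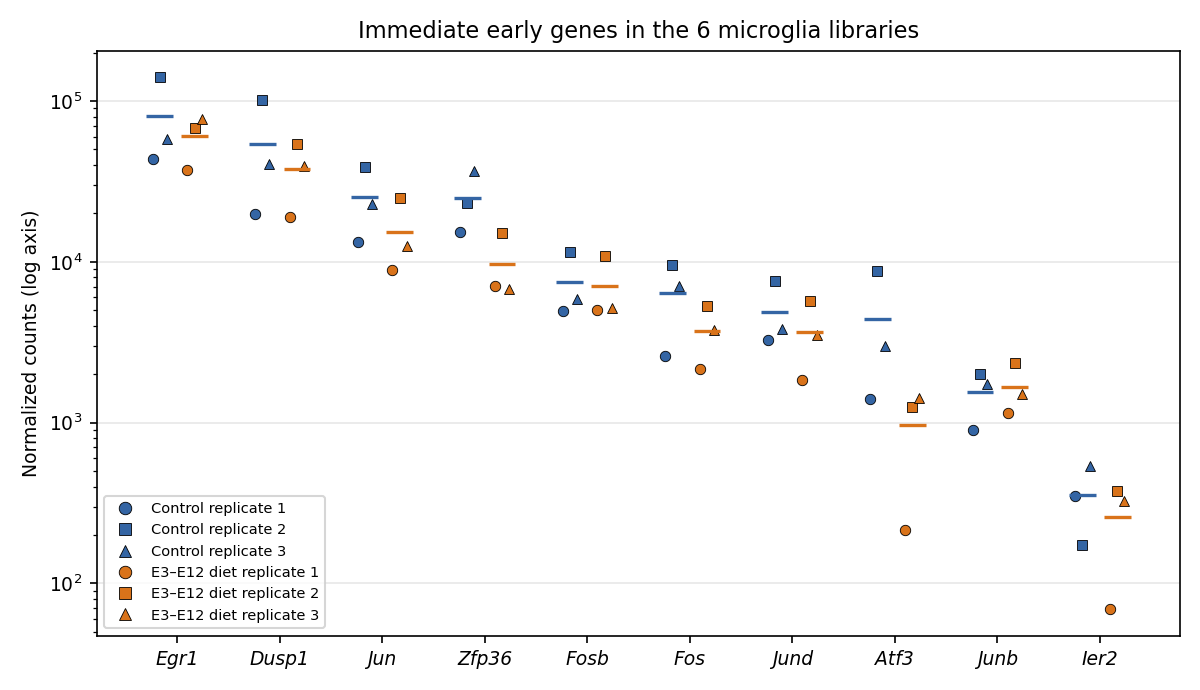
Normalized counts (log axis) of the 10 immediate early genes in the 3 control (blue) and 3 E3–E12 diet (orange) libraries, with symbols for the replicate number and a bar at each group's mean. The groups overlapped in 9 genes, and only for Zfp36 did all E3–E12 diet libraries (6822 to 15108) lie below all controls (15393 to 36831). Of all genes tested, 2.91% were lower without overlap.

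The question of the comparison was whether microglia of E3–E12 diet mice and controls differ in transcription at P15. Differences are given as log2 fold changes of E3–E12 diet over control on the log2(normalized count + 1) scale, from limma fitted over all genes tested. None of the 10 genes passed an adjusted p of 0.1 (smallest adjusted p = 0.999, limma with Benjamini-Hochberg adjustment), as 0% of all genes tested did. The fitted difference was below 0 in 9 of the 10 genes and above 0 in 1, with a median of -0.55, beside a median of 0.09 over all genes tested, of which 8210 were below and 9797 above 0. The direction rested on single libraries: without E3–E12 diet replicate 1 only 5 of the 10 were below 0 and the median was 0.01, and without control replicate 2 it was 6 of the 10 with a median of -0.19. Microglia markers had the same sign, with 8 of 8 below 0 and a median of -0.29, and so did the border-associated macrophage markers. Control replicate 2 held the highest value of 6 of the 8 microglia markers. Csf1r was at 280071 there, 48984 and 106427 in the other controls, and 53504, 108590 and 140889 in E3–E12 diet mice. How far the sign of the markers rests on that library was not tested. The part of these markers' cells in the values of the 10 genes was not tested either. At an unadjusted p under 0.05, 2 of the 10 genes (Atf3 and Zfp36) were lower in E3–E12 diet mice, against a background of 0.683% of all genes, and 0 were higher, against 0.805%. The 10 genes vary together between libraries, so they are not 10 separate observations.

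Fos, the founding immediate early gene, had 2605, 9615 and 7095 normalized counts in the controls, listed here and below by replicate number 1 to 3, against 2166, 5287 and 3740 in E3–E12 diet mice. The lowest values of both groups were close to each other, and the groups overlapped. The log2 fold change of Fos was -0.68 with a standard error (SE) of 0.60 (exact permutation p = 0.4, two-sided). Fosb, a paralog of Fos, had 4965, 11486 and 5883 normalized counts in controls and 5051, 10919 and 5144 in E3–E12 diet mice. Replicate 2 was the highest library of Fosb in either group, and the groups covered nearly the same range. Its log2 fold change of -0.08 (95% confidence interval -1.31 to 1.15) had a sign that depended on the scaling, at 0.14 after quantile normalization and 0.04 with equal library totals. The ratio of Fosb to Fos normalized counts, which needs no scaling of libraries, was 1.91, 1.19 and 0.829 in controls and 2.33, 2.07 and 1.38 in E3–E12 diet mice, with overlap between groups.

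Jun, the main partner of Fos in AP-1, had 13345, 39096 and 22960 normalized counts in controls and 8949, 24830 and 12480 in E3–E12 diet mice. Control replicate 2 was again the highest library and E3–E12 diet replicate 1 the lowest. The difference in Jun was -0.70 on the log2 scale (SE 0.66, exact permutation p = 0.4). Junb, which can oppose Jun in AP-1, had 896, 2016 and 1743 normalized counts in controls and 1143, 2343 and 1509 in E3–E12 diet mice. It was the single gene of the 10 with a positive estimate, 0.12 with a 95% confidence interval of -1.01 to 1.25. Jund, the Jun gene that is active without a stimulus in many cells, had 3276, 7575 and 3801 normalized counts in controls and 1839, 5691 and 3514 in E3–E12 diet mice (log2 fold change -0.45, SE 0.57). In the annotation 52.6% of the exonic bases of Jund also belong to Gm11175 on the opposite strand, 7.52% of those of Junb to Prdx2 and 7.28% of those of Jun to Junos. Whether reads were counted by strand is not given in the sources used here, so the values of Jund are uncertain.

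Egr1, with the highest mean of the 10 per kb, had 43581, 140565 and 57702 normalized counts in controls and 37113, 68345 and 77271 in E3–E12 diet mice. All but 1 of the 6 values lay between 37113 and 77271, and the exception was control replicate 2. The log2 fold change of Egr1 was -0.28 (95% confidence interval -2.05 to 1.48) and 0.21 without control replicate 2. Ier2 departed from the other genes in its pattern, with 348, 172 and 536 normalized counts in controls and 69.1, 377 and 325 in E3–E12 diet mice. Its level in control replicate 2 was the lowest of the controls, where 7 of the 10 genes had their highest value. The difference in Ier2 was -0.64 (SE 0.77, exact permutation p = 0.6).

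Atf3, which is induced by stress of many kinds, varied most. It had 1404, 8804 and 2977 normalized counts in controls and 214, 1246 and 1417 in E3–E12 diet mice, a 41-fold range over the 6 libraries. The groups overlapped only through 1404 and 1417, so that 2 of the 3 E3–E12 diet libraries lay below all controls. Atf3 had the largest difference of the 10 genes, a log2 fold change of -2.20 (SE 0.82), which is 0.218 times the control level (limma unadjusted p = 0.0213, adjusted p = 0.999, exact permutation p = 0.2). The difference rested on control replicate 2 and E3–E12 diet replicate 1: it was -1.50 (unadjusted p = 0.116 from limma) without the former and -1.32 (unadjusted p = 0.163 from limma) without the latter. Per Jun, the normalized count of Atf3 was 0.105, 0.225 and 0.13 in controls and 0.024, 0.0502 and 0.114 in E3–E12 diet mice, so Atf3 was low in the E3–E12 diet libraries also relative to another immediate early gene, with overlap in 1 library. The same ratio for Zfp36 was 1.15, 0.591 and 1.6 in controls and 0.786, 0.608 and 0.547 in E3–E12 diet mice, also with overlap.

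Dusp1 had 19918, 100900 and 40641 normalized counts in controls and 19013, 54411 and 39698 in E3–E12 diet mice. Replicate 1 of each group had nearly the same low value, and control replicate 2 was far above the other libraries. The log2 fold change of Dusp1 was -0.33 (95% confidence interval -2.09 to 1.42), and 0.28 without control replicate 2. Zfp36 had 15393, 23123 and 36831 normalized counts in controls and 7034, 15108 and 6822 in E3–E12 diet mice. Each E3–E12 diet library lay below each control, though 15108 and 15393 lay close together, and it was the only one of the 10 genes without overlap in this direction, where 2.91% of all genes tested were. No gene of the 10 was higher without overlap, where 2.99% of all genes tested were. The difference in Zfp36 was -1.39 (SE 0.61), or 0.381 times the control level (limma unadjusted p = 0.0419, adjusted p = 0.999). An exact permutation test gave p = 0.1, the smallest that 3 libraries against 3 allow. Without control replicate 2, control replicate 3, E3–E12 diet replicate 1 or E3–E12 diet replicate 3 the unadjusted p of Zfp36 from limma was 0.0655, 0.19, 0.167 and 0.14. Atf3 and Zfp36 are both in the list of lower genes that the study drew from these same libraries, so their direction is not independent of that list. The study called them with DESeq2 at an adjusted p below 0.1, which neither passed here with limma on the deposited values.

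The 10 genes and the microglia markers were both highest in the same library. Centred on each gene's own mean, the 10 genes averaged -0.38, 0.95 and 0.43 on the log2 scale in the controls, against -1.15, 0.35 and -0.19 in E3–E12 diet mice. The 8 microglia markers averaged -1.20, 1.25 and 0.37 in the controls and -1.17, 0.15 and 0.60 in E3–E12 diet mice. Control replicate 2 held the highest value of 7 of the 10 genes and of 6 of the 8 markers, and of 26.3% of all genes tested. The same library held the lowest value of 0 of the 10 genes and 0 of the 8 markers, but of 38.2% of all genes tested. E3–E12 diet replicate 1 held the lowest value of 7 of the 10 genes and 4 of the 8 markers, and of 16.5% of all genes tested. The libraries parted in control replicate 1, where the markers were as low as in E3–E12 diet replicate 1 but the immediate early genes were not, and in E3–E12 diet replicate 3, where the markers were above their mean and the immediate early genes below it.

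**Figure D2:**
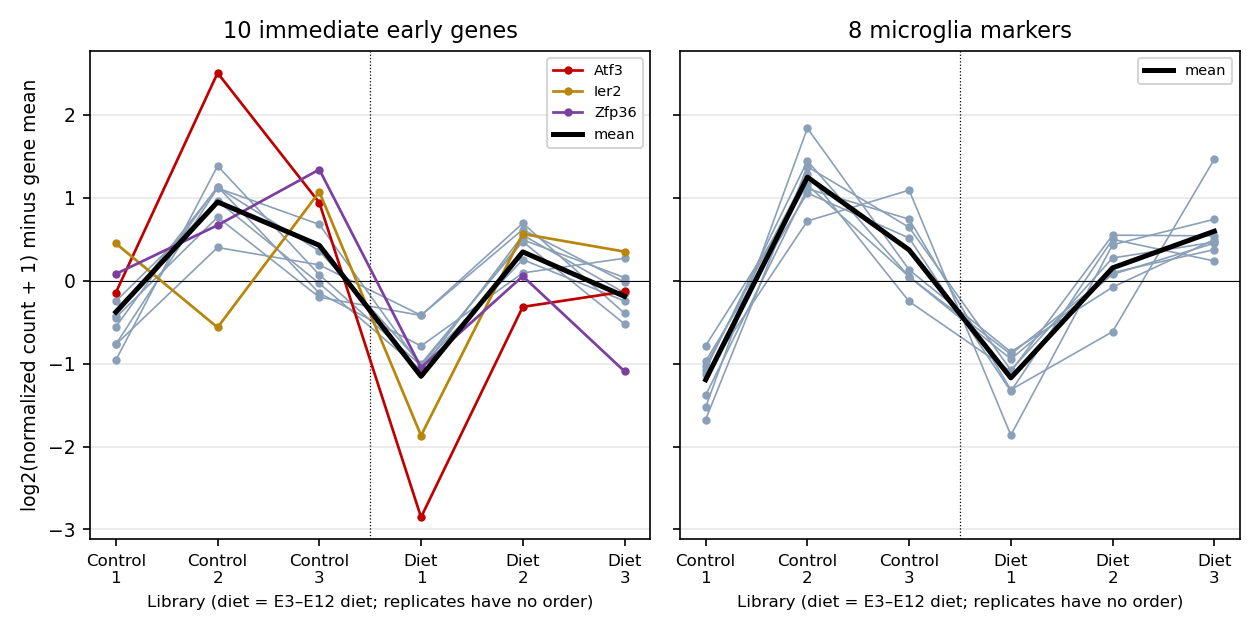
Level of each gene in each library as log2(normalized count + 1) minus that gene's mean, for the 10 immediate early genes (left) and 8 microglia markers (right), with the mean over genes in black; the dotted line parts controls from E3–E12 diet libraries and replicates have no order. Both means peak in control replicate 2 (0.95 and 1.25), while Ier2 is below its own mean there and Atf3 spans the widest range.

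The same genes were therefore also set against the microglia markers, a rescaling chosen after the data had been seen, in which each library was divided by its geometric mean of the 8 markers. The ratio of the highest to the lowest library then went from 5.31 to 1.86 for Dusp1, from 3.79 to 2.24 for Egr1, from 4.44 to 2.41 for Fos and from 41 to 7.67 for Atf3. For Zfp36 it widened from 5.4 to 7.81, for Ier2 from 7.76 to 11, and for Fosb from 2.31 to 3.34. Relative to the markers, Egr1 and Dusp1 had log2 fold changes of -0.00 and -0.05 between diets, while Atf3 had one of -1.92 (SE 0.78, limma unadjusted p = 0.0169, adjusted p = 1). Rescaled values of Atf3 were 3216, 3708 and 2303 in controls and 483, 1120 and 938 in E3–E12 diet mice, so here the groups did not overlap. Those of Zfp36 were 35244, 9738 and 28494 in controls and 15853, 13580 and 4514 in E3–E12 diet mice, which did overlap (log2 fold change -1.11, SE 0.58). Which of these genes separates the groups thus depended on the scaling, since Atf3 also did so with equal library totals and after quantile normalization, and Zfp36 did not. After marker rescaling 1 of the 10 genes was lower without overlap, where 0.972% of all genes tested were. With equal library totals and after quantile normalization it was again 1 of the 10, beside 2.85% and 3.85% of all genes tested. The rescaling moved the median log2 fold change over all genes tested from 0.0867 to 0.341, and equal library totals moved it to 0.198.

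**Figure D3:**
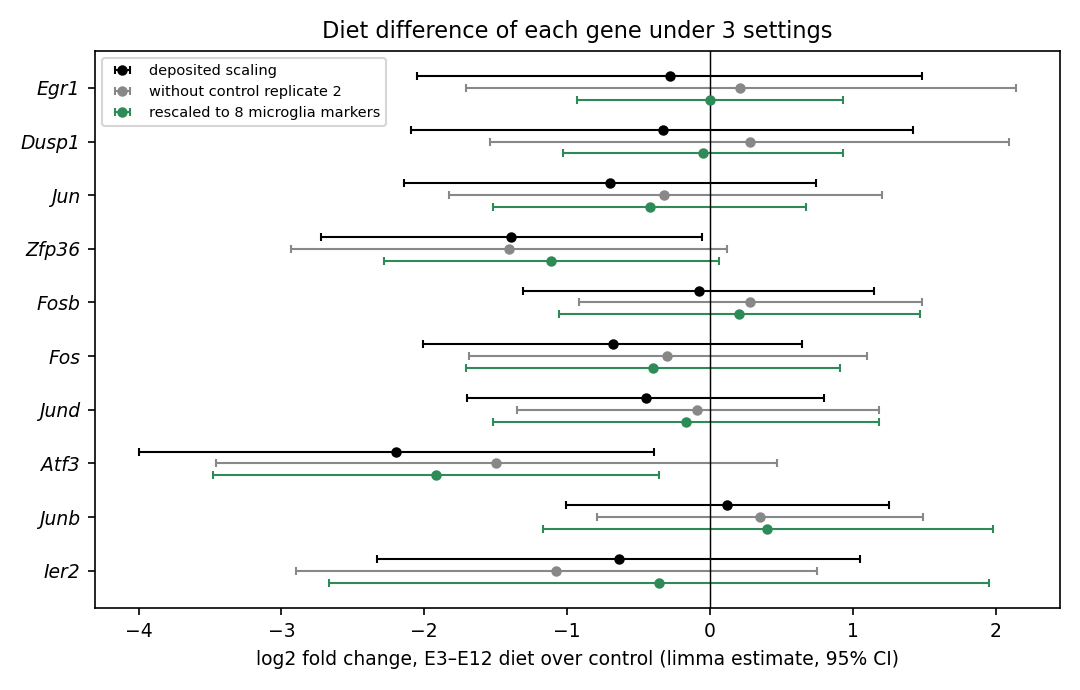
Fitted log2 fold change (E3–E12 diet over control) of each of the 10 genes with its 95% confidence interval from limma, for the deposited scaling (black), without control replicate 2 (grey) and rescaled to the 8 microglia markers (green). Atf3 is at -2.20, -1.50 and -1.92 and Zfp36 at -1.39, -1.41 and -1.11, whereas Egr1 and Dusp1 lie on both sides of 0.

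The genes whose pattern over the 6 libraries was most like the mean of the 10 included Fhl3 (Pearson r = 0.992), Srsf9 (0.989), Epor (0.989) and H2-T23 (0.988), given as a description over 6 libraries. Srsf9, a splicing factor, had 233, 869 and 431 normalized counts in controls and 132, 506 and 279 in E3–E12 diet mice. Of the 10 genes themselves, Jun (0.970) and Fos (0.964) lay closest to the mean pattern and Ier2 (0.522) farthest from it.

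In the wider immediate early response, differences lay on both sides of 0, as they did over all genes tested, of which 54.4% were above 0. Of 22 relatives of AP-1, EGR, ZFP36, DUSP and IER genes, 21 were tested, and 14 had a difference above 0 and 7 below, with a median of 0.17 (-0.04 without control replicate 1) and 0 past the adjusted threshold in either direction. Of the 21, 2 were higher without overlap and 0 lower, where 2.99% and 2.91% of all genes tested were. Jdp2, a repressor that pairs with Jun, had 259, 168 and 123 normalized counts in controls and 271, 463 and 283 in E3–E12 diet mice, without overlap (log2 fold change 0.91, SE 0.60), but the groups overlapped after quantile normalization and with equal library totals. Batf, a further AP-1 family member, was at 82.9, 0 and 82.8 normalized counts in controls against 45, 197 and 103 in E3–E12 diet mice. The phosphatase genes Dusp2 and Dusp5 had log2 fold changes of 0.78 and 0.89 with SEs of 0.54 and 0.66, where that of Dusp1 was -0.33.

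Among 26 other immediate early genes 15 differences were above 0 and 11 below, with a median of 0.13 and 0 past the adjusted threshold. Nfkbia, which encodes the NF-kB inhibitor IkB-alpha, had 2392, 1519 and 2284 normalized counts in controls and 3734, 4548 and 5034 in E3–E12 diet mice. The groups of Nfkbia did not overlap, and the log2 fold change was 1.12 (SE 0.46, limma unadjusted p = 0.032, adjusted p = 0.999). Klf10, a zinc finger transcription factor, had 304, 191 and 328 normalized counts in controls and a narrow 499, 485 and 514 in E3–E12 diet mice (log2 fold change 0.90, SE 0.52). Gadd45b, a stress-induced regulator of growth arrest, had 152, 0 and 156 normalized counts in controls and 209, 396 and 495 in E3–E12 diet mice, and its log2 fold change of 3.58 was 1.16 without control replicate 2. Csrnp1 had a log2 fold change of 1.05 (SE 0.57), with overlap between groups. In all, 4 of the 26 (Nfkbia, Klf10, Gadd45b and Trib1) lay higher in the E3–E12 diet group without overlap and 0 lay lower, against 2.99% and 2.91% of all genes tested. All 4 overlapped between groups after rescaling to the microglia markers, where only 0.811% of all genes tested were higher without overlap.

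Cytokine genes were included because several of their mRNAs are bound by the product of Zfp36 and because they rise with dissociation. Of the 10 measured, 5 differences were above 0 and 5 below, with a median of -0.03 and 0 past the adjusted threshold. Without overlap, 2 of them (Tnf and Cxcl1) were higher and 0 lower, against 2.99% and 2.91% of all genes tested. Tnf had 1083, 1012 and 825 normalized counts in controls and 2342, 1789 and 4982 in E3–E12 diet mice, so every E3–E12 diet library was above every control. The log2 fold change of Tnf was 1.51 (SE 0.51), or 2.85-fold (limma unadjusted p = 0.0129, adjusted p = 0.999, exact permutation p = 0.1), and leaving out single libraries gave 1.08 to 1.82, the lowest without E3–E12 diet replicate 3 (unadjusted p = 0.0715 from limma). After rescaling to the microglia markers the difference in Tnf was 1.79, with overlap between groups. The ratio of Tnf to Zfp36 normalized counts was 0.0703, 0.0438 and 0.0224 in controls and 0.333, 0.118 and 0.73 in E3–E12 diet mice, without overlap. The ratio was chosen after both genes' values were seen. Since Tnf was higher and Zfp36 lower, each without overlap, their ratio had to separate the groups and is not a further result. Whether the product of Zfp36 acted on Tnf mRNA in these cells was not tested. Tnf, Nfkbia and Gadd45b are in the list of higher genes that the study drew from these same libraries, so their direction is not independent of that list. The study called them with DESeq2 at an adjusted p below 0.1, which none of them passed here. Cxcl1 was low in every library, at 21.8, 1.96 and 8.75 normalized counts in controls and 36.1, 43.9 and 28.4 in E3–E12 diet mice, and its groups overlapped with equal library totals. Ccl2 (log2 fold change -0.63, SE 0.55) and Ptgs2 (0.34, SE 0.50) overlapped between groups.

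**Figure D4:**
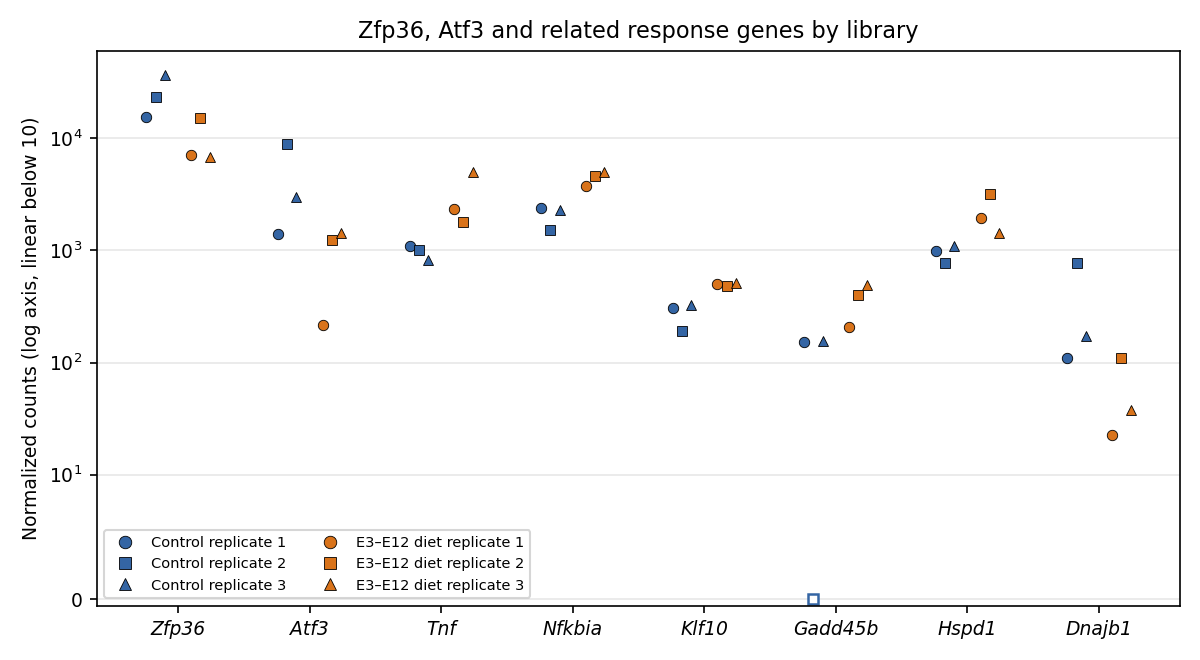
Normalized counts per library of Zfp36 and Atf3 beside Tnf, Nfkbia, Klf10, Gadd45b, Hspd1 and Dnajb1, on a log axis that is linear below 10, with controls in blue, E3–E12 diet in orange, symbols for the replicate number and an open symbol for a library listed at 0. Tnf, Nfkbia, Klf10, Gadd45b and Hspd1 lay above, and Zfp36 below, the whole range of the controls in all 3 E3–E12 diet libraries, while Atf3 and Dnajb1 overlapped. The genes shown were chosen with their values known, and 2.99% of all genes tested were higher and 2.91% lower without overlap. After rescaling to the microglia markers, Tnf, Nfkbia, Klf10, Gadd45b, Hspd1 and Zfp36 all overlapped between groups.

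Heat shock genes encode chaperones and also respond to isolation. Of 14 genes, 10 differences were above 0 and 4 below, with a median of 0.24, and 0 passed the adjusted threshold. Without overlap, 1 of them (Hspd1) was higher and 0 lower, against 2.99% and 2.91% of all genes tested. Dnajb1, a co-chaperone induced by heat shock factor, had 109, 765 and 174 normalized counts in controls and 22.7, 110 and 37.9 in E3–E12 diet mice (log2 fold change -2.39, SE 0.94, limma unadjusted p = 0.0277, adjusted p = 0.999). Like Atf3, Dnajb1 was highest in control replicate 2 and lowest in E3–E12 diet replicate 1, and its difference was -1.57 without the former library. It is also in the study's list of lower genes, drawn from these libraries. Hspd1, the mitochondrial chaperonin, lay above all controls in the 3 E3–E12 diet libraries, with 1954, 3207 and 1419 normalized counts against 993, 770 and 1093 in controls (log2 fold change 1.14, SE 0.49). The groups of Hspd1 overlapped with equal library totals and after rescaling to the microglia markers. Hspe1, which works together with Hspd1, had a log2 fold change of -1.04 (SE 0.83), and Hspb1 one of 1.04 (SE 0.70).

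Of 20 kinases and transcription factors that act upstream of these genes, 11 differences were above 0 and 9 below, with a median of 0.12, and 0 passed the adjusted threshold or separated the groups. Mrtfa, a coactivator of serum response factor, had a log2 fold change of -0.87 (SE 0.53), and Crem, a factor of the cAMP response, one of 1.58 (SE 1.07). Elk4 (-0.82, SE 0.67), which encodes an ETS partner of serum response factor, was highest in control replicate 2, at 6781 normalized counts, against 1017 to 1292 in the other 5 libraries.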

How the data were processed

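RNA of 3 control and 3 E3–E12 diet libraries was sequenced by the study. The authors deposited normalized counts per gene, a signal that holds no read counts; the methods give a range of reads per sample for the study, but the depth of each library cannot be read from these values. The submitters' processing notes name FastQC, STAR, featureCounts, DESeq2 and the build GRCm38. The scaling, and the surrogate variable step that the table's name mentions, are not given in the sources used here. Symbols were matched for 26507 of 26789 identifiers. Genes with a mean of at least 10 were compared on log2(normalized count + 1) with limma 3.58.1 in R 4.3.3 (two-sided, mean-variance trend, Benjamini-Hochberg adjustment, threshold 0.1 after the study's methods), after tests on simulated data. Single genes were also compared with an exact permutation test (scipy 1.17.1). The rule named all 10 genes, the 4 genes with the smallest p in each list and the 5 genes most like the mean. Of these, 2 genes are not reported here. The genes and lists were chosen with earlier results of these data known. Of the 50-base transcript windows, 48.3% for Jund, 5.83% for Jun, 5.76% for Junb and 4.21% for Zfp36 also occur in other annotated genes, and 0% for the remaining 6 genes.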

Additional observations from a re-analysis of the deposited data

How the results depend on the processing

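The alternatives were a pseudocount of 10, no filter, quantile normalization, equal library totals, no mean-variance trend, the replicate number as a block, each library left out, and rescaling to the microglia markers (added after the data had been seen). No setting called any of the 10 genes at an adjusted p of 0.1. Over all genes the count past that threshold was 0, or 0 to 1 with a library left out (Bicra, named after its values were seen). The number with an unadjusted p under 0.05 was 268, with a replicate block 478, rescaled to the markers 124, and 188 to 878 with a library left out. Of the 10 genes, 2 had an unadjusted p under 0.05, and 1 without the filter, 0 without the trend and 1 after rescaling to the markers, or 0 to 2 with a library left out (0 without control replicate 2 or E3–E12 diet replicate 1). Between 1 and 3 were lower without overlap with a library left out (3 without control replicate 1), where 5.69% to 8.16% of all genes tested were. Fosb changed sign to 0.14, 0.04 and 0.20 after quantile normalization, equal totals and marker rescaling. With a library left out the log2 fold changes ran from -0.45 to 0.28 for Fosb, -0.23 to 0.36 for Junb, -0.63 to 0.21 for Egr1, -0.89 to 0.28 for Dusp1 and -1.08 to 0.14 for Ier2, the median of the 10 genes from -0.91 to 0.01, and that of the cytokine genes from -0.40 to 0.34. The cause of these changes was not tested. Same-numbered libraries deviated together with r = 0.26, 0.0348 and 0.142, beside -0.251 to 0.0869 for differently numbered ones. The labels state no pairing, so the numbers were not taken to pair the libraries, and these values do not settle it. With the block the unadjusted p from limma was 0.00185 for Atf3 and 0.0194 for Zfp36, and no call changed at the adjusted threshold. With 3 libraries a group, the median standard error over all genes was 0.90 on the log2 scale.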
